A study of Mus musculus with 12 samples.

Results

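The genes described here are the hyperpolarization-activated cyclic nucleotide-gated (HCN) channel genes Hcn2, Hcn3 and Hcn4 and Pex5l, which encodes TRIP8b, a partner of the channels. They were chosen by name, with earlier results of these data known. All 4 were found once among the 34745 genes of the deposited table. All 4 were also among the 15808 genes with enough counts to be tested in the 12 libraries. The libraries held mRNA from medial prefrontal cortex (mPFC) of male mice of wild-type genotype. The labels give day 28 after operation for operated mice and day 28 of habituation for naive mice. Of the 12 libraries, 4 were from the right mPFC of mice with a chronic constriction injury (CCI) of the sciatic nerve. The right is the side contralateral to the operation. Another 4 were from the left, ipsilateral mPFC of CCI mice. The last 4 were from naive mice, which had no treatment and whose hemisphere the labels do not give, so hemisphere and injury cannot be told apart when one CCI side is set against naive mice. CCI, loose ligatures around the nerve, is a common model of neuropathic pain. The labels name no sham-operated group, so injury and surgery cannot be told apart either.

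HCN channels open when the membrane becomes more negative and carry an inward cation current that sets the resting potential and the pacing of firing. Cyclic AMP binds to their C-terminal part and makes opening easier, most clearly in the channels made by Hcn2 and Hcn4. In dendrites of prefrontal pyramidal neurons open HCN channels shunt synaptic input, and TRIP8b controls how many channels reach the membrane and lowers their response to cyclic AMP. TRIP8b is made in several splice forms, some of which raise and some of which lower the surface level of the channels. The counts are per gene and do not separate these forms.

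The 3 channel genes code for the same pore signature. The coding bases around it are shown because they mark what the family shares and how far the genes differ at the DNA level. Capitals mark the codons of the glycine-tyrosine-glycine selectivity filter, through which cations pass. The bases are in the sense of each gene, from the longest coding transcript of GENCODE M21 (GRCm38).
Hcn2: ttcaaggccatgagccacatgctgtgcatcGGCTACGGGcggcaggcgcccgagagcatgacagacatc
Hcn3: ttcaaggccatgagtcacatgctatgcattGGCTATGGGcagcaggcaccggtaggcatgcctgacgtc
Hcn4: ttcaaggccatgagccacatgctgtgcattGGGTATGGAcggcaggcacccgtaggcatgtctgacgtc
These 69 bases lie in coding exons at chr10:79728929-79728997 on the plus strand for Hcn2, at chr3:89150976-89151044 on the minus strand for Hcn3 and at chr9:58855561-58855629 on the plus strand for Hcn4. Hcn3 differed from Hcn2 at 13 of them and Hcn4 at 11. Over whole coding transcripts the genes shared little exact sequence. Only 5 of the 3165 stretches of 31 bases in the Hcn2 transcript occurred in another gene, 4 of 6088 in that of Hcn4, and no stretch of the Pex5l transcript occurred in a channel gene.

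Neighbouring gene models bear more on the counts. Hcn3 (ENSMUSG00000028051; chromosome 3, 89146074 to 89160196) overlaps the exons of the oppositely directed Pklr, a pyruvate kinase gene, over 711 bases, and 686 of the 3972 stretches of 31 bases in its transcript (17.3%) occur in another gene, most of them in Pklr. Pklr had 0 or 1 counts in every library. Pex5l (ENSMUSG00000027674; chromosome 3, 32949408 to 33143247) shares 340 exon bases with the antisense model Gm37459, which had at most 4 counts. Whether counting used the strand is not given in the sources used here. Hcn2 (ENSMUSG00000020331; chromosome 10, 79716634 to 79736108) has no exon overlap. Hcn4 (ENSMUSG00000032338) has none either, but its deposited locus, chromosome 9 from 58823512 to 58860955, leaves out 2320 of the 6118 exon bases of the GENCODE M21 model, which is 3798 bases, the same as the length behind its deposited FPKM (fragments scaled by gene length and library total). Reads from the left-out bases are not in the Hcn4 counts if the authors counted within that locus.

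Total counts ran between about 16089500 (contralateral 2) and 20647200 (ipsilateral 2) per library. Cortical identity was checked with 7 markers of deep-layer pyramidal neurons, among them Fezf2 and Tle4, whose summed level was 302 to 501 CPM (counts scaled by library total, with TMM factors) in contralateral, 384 to 460 CPM in ipsilateral and 373 to 418 CPM in naive libraries. Markers of thalamus, where Hcn4 is known to be high, summed to 68.8 to 87.6, 72.0 to 85.1 and 76.3 to 80.8 CPM in contralateral, ipsilateral and naive libraries. Most of this sum was Rora, at 39.3 CPM (contralateral 1) to 58.5 CPM (ipsilateral 3). Tcf7l2 was at 2.19 CPM (ipsilateral 2) to 5.22 CPM (contralateral 4) and hardly moves the sum. Whether the amount of thalamic tissue varied was not tested. Contralateral 1 stood apart in striatum markers, at 302.3 CPM in sum against 128 to 175 CPM in the 11 other libraries. Markers of meninges and fibroblasts were lower in ipsilateral 1, 3 and 4, at 31.3 to 34.2 CPM, than in any naive library (45.6 to 65.2 CPM). None of the marker genes on these lists was at 0 in all libraries.

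Hcn2, a strongly cyclic AMP-sensitive channel gene, was the steadiest member in naive cortex. Its level was 128.9, 150.1, 157.6 and 149.9 CPM in contralateral 1 to 4, 186.2, 130.5, 156.1 and 165.1 CPM in ipsilateral 1 to 4, and 146.3, 156.2, 146.8 and 158.6 CPM in naive 1 to 4. Contralateral 1 and ipsilateral 2 lay below every naive library, ipsilateral 1 and 4 lay above every one, and the 3 groups overlapped. The coefficient of variation was 8.43% in contralateral, 14.5% in ipsilateral and 4.19% in naive libraries (n = 4 each).

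Hcn3, a channel gene whose product responds little to cyclic AMP, was counted far less often. Its level was 26.1, 22.2, 26.0 and 31.6 CPM in contralateral 1 to 4, 21.8, 24.3, 23.2 and 28.5 CPM in ipsilateral 1 to 4, and 27.7, 25.9, 24.9 and 24.4 CPM in naive 1 to 4. The highest library on each CCI side was that of mouse 4, and all groups overlapped.

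Hcn4, the main pacemaker channel gene of the heart's sinoatrial node, had the lowest counts of the members. It had 62, 25, 55 and 68 counts in contralateral 1 to 4, 20, 62, 51 and 43 in ipsilateral 1 to 4, and 76, 34, 58 and 70 in naive 1 to 4. In CPM this was 1.56 to 3.77 in contralateral, 1.14 to 3.02 in ipsilateral and 2.002 to 4.22 in naive libraries. One library in each of the 3 groups lay well below the others, ipsilateral 1 at 1.14 CPM (exact Poisson 95% interval 0.697 to 1.76), contralateral 2 at 1.56 CPM (1.01 to 2.30) and naive 2 at 2.002 CPM (1.39 to 2.80). These intervals cover counting error only.

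Pex5l was counted about as often as Hcn2. Its level was 142.6, 169.3, 151.5 and 134.2 CPM in contralateral 1 to 4, 169.7, 140.8, 151.9 and 185.9 CPM in ipsilateral 1 to 4, and 113.2, 137.0, 163.3 and 129.9 CPM in naive 1 to 4. Every CCI library lay above naive 1 and naive 4, and naive 3 lay above all but 3 CCI libraries. The groups therefore overlapped, with naive libraries spread most widely (SD 20.9 CPM, n = 4).

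**Figure D1:**
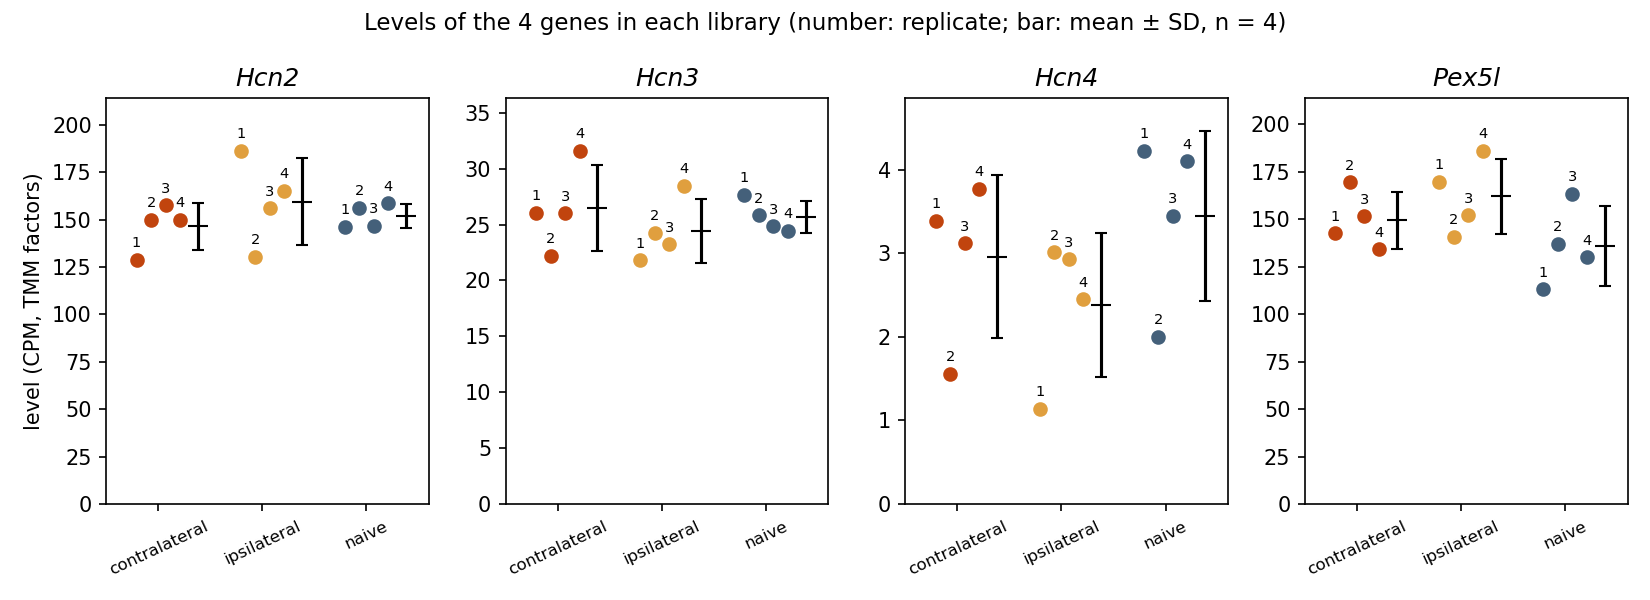
Level of each gene in CPM (vertical axes from 0, one scale per gene) in contralateral, ipsilateral and naive libraries, with replicate numbers beside the points and mean ± SD (n = 4) as bars. Groups overlap for all 4 genes; Hcn4 has one low library in each group (contralateral 2, ipsilateral 1 and naive 2), and Pex5l in naive libraries spans 113.2 to 163.3 CPM.

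Levels of different genes can be compared only per length. By the deposited FPKM, Hcn2 was highest (35.2 ± 3.2), followed by Pex5l (10.8 ± 1.4), Hcn3 (4.62 ± 0.51) and Hcn4 (0.773 ± 0.261; SD, n = 12 libraries each). The ranges over libraries did not overlap between any neighbours in this order, the nearest being Pex5l at 8.28 FPKM or more and Hcn3 at 5.73 FPKM or less. The order was the same in contralateral, ipsilateral and naive cortex.

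The steps to Pex5l and to Hcn4 depended on the length used. The deposited FPKM divide Pex5l by 13789 bases, whereas its longest coding transcript has 4206 bases, and divide Hcn2 by 4340 bases against 3195. The FPKM level of Hcn2 was 3.29 times that of Pex5l (SD 0.44, range 2.82 to 4.11, n = 12). Per kilobase of the longest coding transcript, a length chosen after seeing the data, the level of Hcn2 was 1.36 times that of Pex5l (SD 0.18, range 1.17 to 1.70), at 47.8 ± 4.7 CPM per kb for Hcn2 and 35.5 ± 4.8 for Pex5l. Hcn2 was above Pex5l in all 12 libraries by both lengths. Hcn2 exceeded Hcn3 by 7.72 times in FPKM (range 6.06 to 10.9) and by 7.58 times per coding transcript length (range 5.95 to 10.7, n = 12). The FPKM level of Hcn2 was 54.4 times that of Hcn4 (range 30.3 to 143), against 119 times (range 66.3 to 313) per coding transcript length. For Hcn3 over Hcn4 the ratios were 6.75 (range 4.09 to 13.1) in FPKM and 15.0 (range 9.11 to 29.2) per coding transcript length. The longest coding transcript of Hcn4 has 6118 bases, and 2320 exon bases lie outside its deposited locus. If reads from those bases were not counted, its level per coding transcript length is too low and the ratios over it too high.

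**Figure D2:**
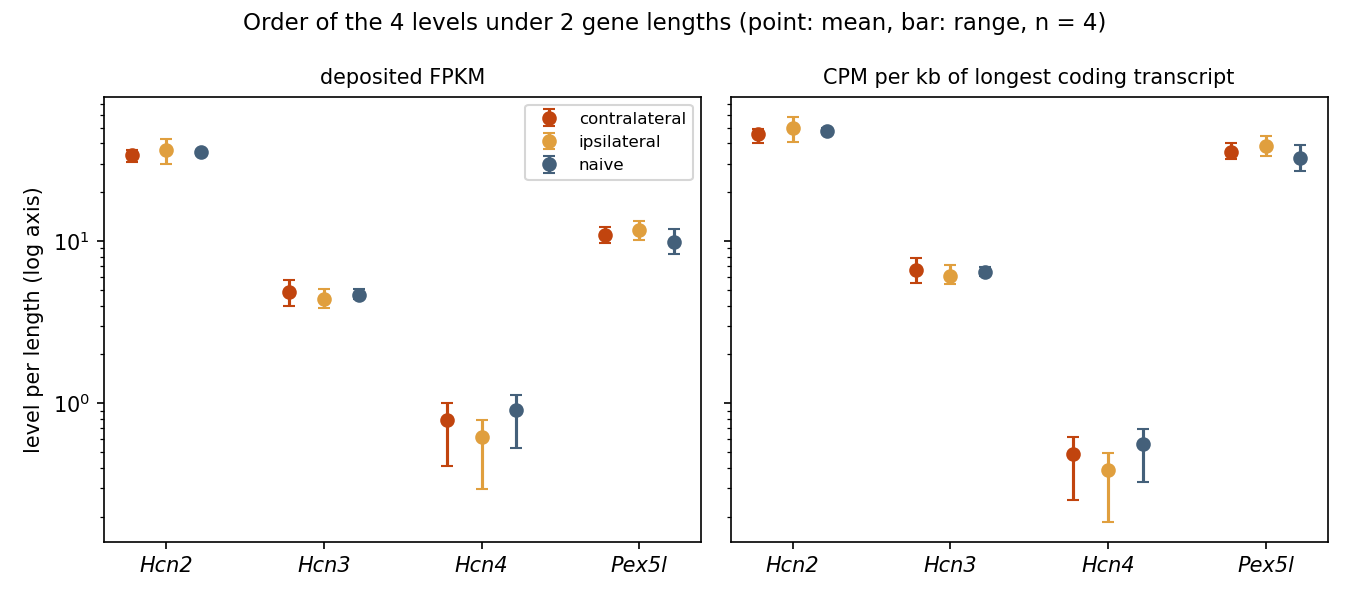
Level per length on a log axis for the 4 genes in contralateral, ipsilateral and naive libraries (point, mean; bar, range; n = 4), as deposited FPKM on the left and as CPM per kb of the longest coding transcript on the right. The order is the same in both panels, the gap between Hcn2 and Pex5l is smaller on the right (1.36 times against 3.29 times on the left), and the gap between Hcn3 and Hcn4 is larger there (15.0 times against 6.75 times). If reads outside the deposited Hcn4 locus were not counted, the Hcn4 level on the right is too low.

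The contralateral mPFC was compared with naive mPFC to ask whether the cortex opposite to the operated nerve held other levels of these channels. No member passed, and neither did any gene of the table (0.00% of 15808 called at an adjusted p under 0.05, edgeR with Benjamini-Hochberg adjustment; 3.78% at an unadjusted p under 0.05). All 4 overlapped between the groups, while the groups of 2.19% of all genes did not. Mean Hcn2 was 146.6 ± 12.4 CPM for contralateral and 152.0 ± 6.4 CPM for naive cortex, and the log2 fold change was -0.05 (SE 0.09, 95% interval -0.25 to 0.14). Mean Pex5l was 149.4 ± 15.0 CPM for contralateral and 135.8 ± 20.9 CPM for naive cortex (SD over 4 libraries), and the log2 fold change was 0.13 (SE 0.11, interval -0.11 to 0.38). Hcn3 stood at 0.04 (SE 0.10, interval -0.18 to 0.26) and Hcn4 at -0.22 (SE 0.32, interval -0.90 to 0.47). The edgeR adjusted p was 1.00 for each. Contralateral 1, the library highest in striatum markers, had the lowest contralateral level of Hcn2. Without it the log2 fold change of Hcn2 was 0.0024. Ipsilateral 2 had a similar Hcn2 level (130.5 CPM) at 168 CPM of striatum markers, and a part of striatum in these levels was not tested.

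On the ipsilateral side Pex5l had the smallest p of any member in any comparison. Its mean was 162.1 ± 19.8 CPM for ipsilateral and 135.8 ± 20.9 CPM for naive cortex (SD over 4 libraries), and the log2 fold change was 0.25 (SE 0.11, 95% interval 0.003 to 0.50), or 1.19-fold. Its unadjusted p was 0.0477 and its edgeR adjusted p 0.972, so it did not pass. Pex5l was 1 of 763 genes, 4.83% of those tested, with an unadjusted p under 0.05, and stood at rank 727 by p. The groups overlapped, since ipsilateral 2 and 3 (140.8 and 151.9 CPM) lay below naive 3 (163.3 CPM).

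The channel genes did not pass on this side either (0.00% of all genes called). Mean Hcn2 was 159.5 ± 23.1 CPM for ipsilateral and 152.0 ± 6.4 CPM for naive cortex, and the log2 fold change was 0.07 (SE 0.09, interval -0.13 to 0.26). Mean Hcn3 was 24.4 ± 2.9 CPM for ipsilateral and 25.7 ± 1.4 CPM for naive cortex, and the log2 fold change was -0.08 (SE 0.10, interval -0.30 to 0.15). Mean Hcn4 was 2.38 ± 0.86 CPM for ipsilateral and 3.44 ± 1.02 CPM for naive cortex (SD over 4 libraries), and the log2 fold change was -0.53 (SE 0.32). The interval for Hcn4, -1.23 to 0.17, corresponds to 0.427-fold to 1.12-fold of the naive level. The edgeR adjusted p was 0.972 or more for each.

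**Figure D3:**
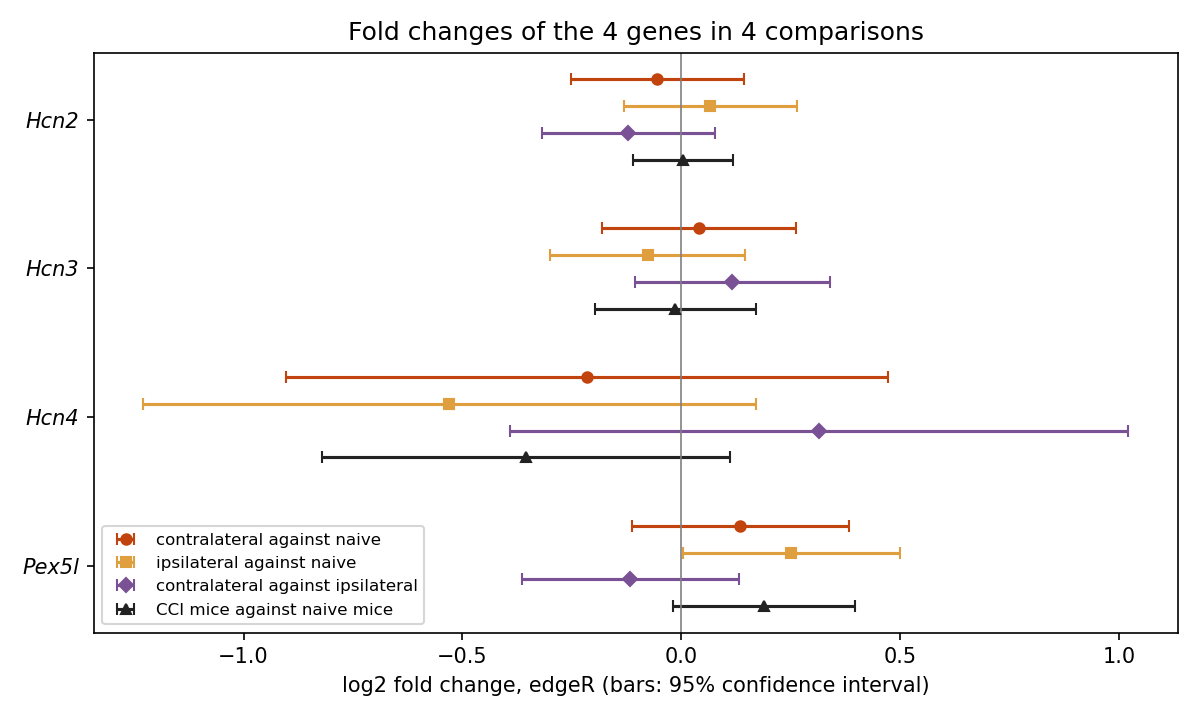
Log2 fold changes of the 4 genes (horizontal axis; points, edgeR estimates; bars, 95% confidence intervals) in 4 comparisons, each with the group named first over the second. Only the interval of Pex5l in ipsilateral against naive libraries leaves out 0 (0.003 to 0.50), before adjustment over all genes, and the intervals of Hcn4 are the widest.

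The mouse is the independent unit, so counts of left and right libraries with the same number were summed and the resulting 4 CCI mice were set against the 4 naive mice. The labels carry codes that end in L or R with a shared number, which were read as hemispheres of one mouse. Over tested genes the deviations of these pairs from group means correlated at -0.14 to 0.06. The counts therefore do not bear out this pairing, and the sums are called mice on the codes alone. Pex5l then averaged 155.5 ± 3.3 CPM in CCI mice (156.5, 153.8, 151.9 and 159.6) and 135.9 ± 21.1 CPM in naive mice (113.2, 136.6, 163.9 and 129.7; SD, n = 4 each). Each CCI value joins 2 libraries and each naive value is 1 library, so SDs of CCI and naive mice are not comparable. Over single libraries the SD of Pex5l was 15.0 CPM in contralateral and 19.8 CPM in ipsilateral cortex. All 4 CCI mice lay above naive 1, 2 and 4 and below naive 3. The log2 fold change was 0.19 (SE 0.09, interval -0.02 to 0.40; unadjusted p = 0.0699, edgeR adjusted p = 1.00).

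Mean Hcn4 was 2.71 ± 0.43 CPM in CCI mice and 3.45 ± 1.02 CPM in naive mice (SD over 4 mice), and the log2 fold change was -0.35 (SE 0.21, interval -0.82 to 0.11). Mean Hcn2 was 152.9 ± 8.9 CPM in CCI mice and 151.9 ± 6.0 CPM in naive mice (SD over 4 mice), and the log2 fold change was 0.0035 (SE 0.05). Its interval of -0.11 to 0.12 corresponds to 0.926-fold to 1.09-fold, the narrowest of any member. Hcn3 stood at -0.01 (SE 0.08, interval -0.20 to 0.17). The edgeR adjusted p was 1.00 for each, beside 0.00% of 16179 genes called and 4.20% at an unadjusted p under 0.05. The groups of mice overlapped for all 4 members, and did not for 2.69% of genes. Whether a lower level in tissue came from fewer cells of a type or from less RNA per cell cannot be told apart in these libraries.

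Right and left mPFC of the CCI mice were compared to ask whether the hemispheres differed. No member passed (0.00% of genes called; 8.36% at an unadjusted p under 0.05, and 0 of the 4 members). The sides overlapped for each member. The log2 fold change, contralateral over ipsilateral, was -0.12 for Hcn2 (SE 0.09, interval -0.32 to 0.08), 0.12 for Hcn3 (SE 0.10, interval -0.11 to 0.34), 0.31 for Hcn4 (SE 0.33, interval -0.39 to 1.02) and -0.12 for Pex5l (SE 0.11, interval -0.36 to 0.13). The edgeR adjusted p ran between 0.718 for Hcn2 and 0.798 for Hcn4.

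With same-numbered right and left libraries read as the same mouse, mouse 2 went against mice 1 and 4 in all 4 genes. The counts do not bear out this reading. Over tested genes, ipsilateral 1 was the best correlated with contralateral 2, and ipsilateral 2 with contralateral 1. The log2 ratio of the right to the left level of Hcn2 was -0.53 in mouse 1, -0.14 in mouse 4 and 0.01 in mouse 3, but 0.20 in mouse 2. For Hcn4 it was 1.57 in mouse 1, 0.62 in mouse 4 and 0.09 in mouse 3, but -0.95 in mouse 2. Hcn3 was higher on the right in mice 1, 3 and 4 (log2 ratios of 0.26, 0.16 and 0.15) and lower in mouse 2 (-0.13). Pex5l was lower on the right in mice 1 and 4 (-0.25 and -0.47), nearly equal in mouse 3 (-0.0042) and higher in mouse 2 (0.27).

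With both libraries of mouse 2 left out, the log2 fold changes between sides were -0.21 for Hcn2, 0.19 for Hcn3, 0.66 for Hcn4 and -0.24 for Pex5l. Mouse 2 was singled out for running against the others, so larger fold changes without it follow from that choice. No member passed (edgeR adjusted p = 0.204, 0.409, 0.321 and 0.326), although 286 genes of the table did in that fit. No gene passed when both libraries of mouse 1, 3 or 4 were left out instead. Mouse 2 also stood against the others in markers of meninges and fibroblasts, with a summed level of 26.4 CPM in contralateral 2 and 50.9 CPM in ipsilateral 2, beside 51.9 to 72.7 CPM in the other contralateral and 31.3 to 34.2 CPM in the other ipsilateral libraries. Upper-layer pyramidal neuron markers summed to 322 CPM in contralateral 2 and 521 CPM in ipsilateral 2, beside 538 to 794 CPM in the other contralateral and 355 to 512 CPM in the other ipsilateral libraries. Contralateral 2 and ipsilateral 1, the CCI libraries with the least Hcn4, were also the lowest of all 12 in these markers (322 and 355 CPM). Naive 2, the naive library with the least Hcn4, was not low in them, at 537 CPM in a naive range of 473 to 591 CPM. Interneuron markers were higher on the right in mouse 2 (1315 CPM right, 1200 CPM left) and lower on the right in mice 1, 3 and 4. Oligodendrocyte markers summed to 4632 and 5133 CPM in contralateral 1 and 2 and to 4403 CPM in ipsilateral 1, beside 2540 to 3318 CPM in naive libraries. They summed to 3365 and 3106 CPM in ipsilateral 2 and 3. Contralateral 3 and 4 (2361 and 2309 CPM) and ipsilateral 4 (2303 CPM) lay below every naive library in these markers.

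The log2 fold change between the sides was positive for all 7 meningeal and fibroblast markers (median 0.58), all 7 microglia (0.27), all 6 astrocyte (0.28), all 5 endothelial (0.20) and all 9 oligodendrocyte markers (0.13). It was positive for 5 of 6 upper-layer pyramidal (0.25), 5 of 6 striatum (0.69) and 4 of 5 thalamus markers (0.28), for 2 of 7 deep-layer pyramidal (-0.10) and for 1 of 9 interneuron markers (-0.19). Over all genes tested 51.1% had a positive one and the median was 0.0049. None of these marker genes passed after adjustment. Genes on one list can vary together, so these counts are not independent evidence of a difference between the sides. Oligodendrocyte markers were lower on the right in mouse 3 (2361 CPM right, 3106 CPM left) and nearly equal in mouse 4 (2309 and 2303 CPM). Deep-layer markers summed to 499 and 501 CPM in contralateral 1 and 2 but to 302 and 305 CPM in contralateral 3 and 4. The part of these cell types in the levels of the members was not tested.

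**Figure D4:**
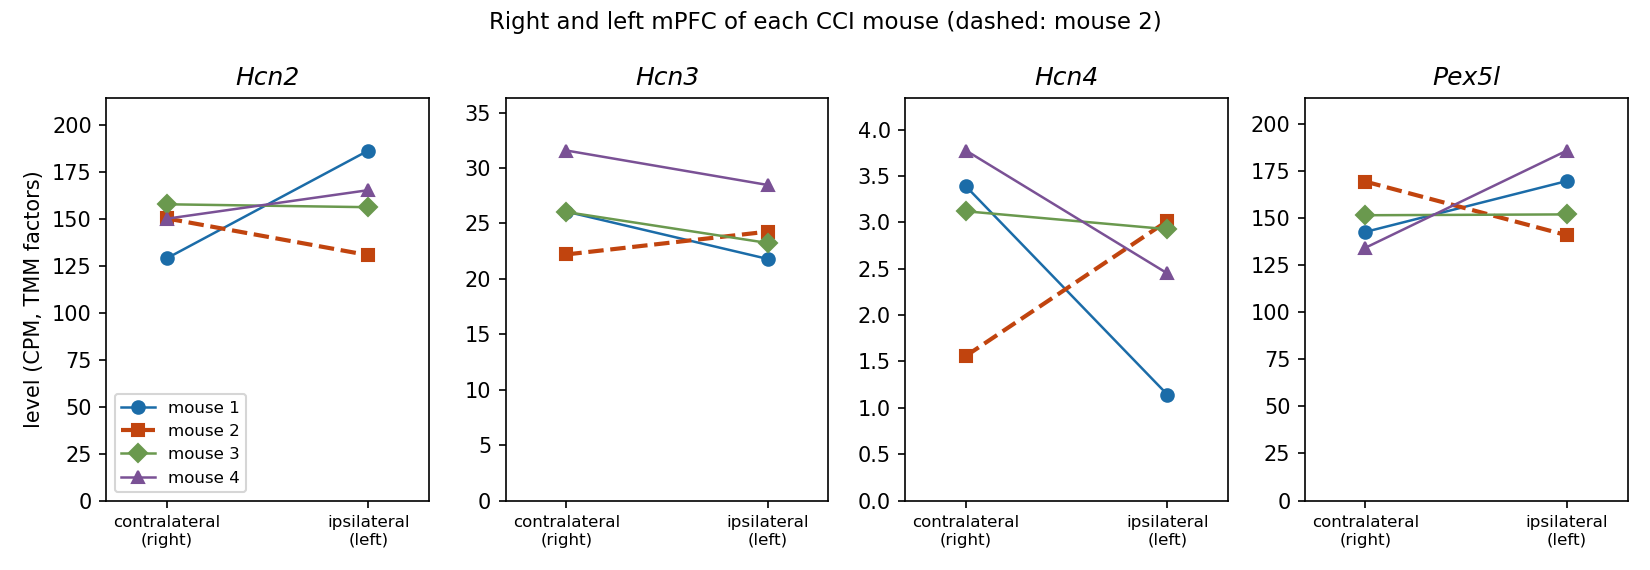
Level in CPM (vertical axes from 0, one scale per gene) in the contralateral (right) and ipsilateral (left) mPFC of each of the 4 CCI mice, joined by lines. Same-numbered right and left libraries were read as the same mouse. The dashed line of mouse 2 slopes against those of mice 1 and 4 for all 4 genes, most widely for Hcn4 (1.56 CPM on the right and 3.02 CPM on the left).

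How the members varied together was examined over the 8 mice. Across the 6 pairs, Pearson's r of log2 CPM ran between -0.44 for Hcn4 with Pex5l and 0.30 for Hcn3 with Hcn4. No pair passed an exact permutation test (Hcn4 with Pex5l: r = -0.44, exact p = 0.271, adjusted p = 0.925 over the 6 pairs; rho = -0.26, exact p = 0.536, adjusted p = 0.977). Without the 2 mice farthest from the median of Hcn4 the same r was -0.52. Over the 12 libraries, in which CCI hemispheres share mice and each library's depth, r was -0.63 for Hcn4 with Pex5l, 0.59 for Hcn3 with Hcn4 and -0.56 for Hcn2 with Hcn4, given as a description only.

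The genes whose log2 CPM followed each member most closely over the 12 libraries were listed as a description, leaving out predicted gene models. For Hcn2 they were Frmpd1 (r = 0.96), the nuclear receptor gene Esrra (0.94) and Clec2l (0.94). Camk1, a calcium/calmodulin-dependent kinase gene, followed Hcn3 (0.93), with Stxbp4 (0.905) and Vwa5b1 (0.87). Hcn4 was followed by the homeobox gene Meis2 (0.95), the inducible chaperone gene Hspa1b (0.95) and Ankrd63 (0.94). Pex5l was followed by Klhl32 (0.93), Tmbim4 (0.91) and the lysosomal small GTPase gene Arl8a (0.89). An r above 0.9 was reached by 13 genes for Hcn2, 18 for Hcn4 and 2 each for Hcn3 and Pex5l.

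Around the channels stand proteins that bind them, enzymes that make and break down cyclic AMP, receptors that raise or lower it, and kinases that act on the channels. Of 61 genes on 5 such lists, 59 were tested, and none passed in any comparison. At an unadjusted p under 0.05 there were 2 of 59 (3.39%) in contralateral against naive, beside 3.78% of all genes, 5 (8.47%) in ipsilateral against naive, beside 4.83%, and 10 (16.9%) between the sides, beside 8.36%. The median log2 fold change of the 59 genes was -0.01, -0.04 and 0.05 in these comparisons. The CCI mice against naive mice gave 5 of 59 (8.47%, beside 4.20%). The lists were chosen with earlier results of these data known, and genes on them can vary together. They also hold Pex5, a relative of Pex5l in sequence, and genes abundant in striatum. These shares are therefore not independent evidence of a change around the channels.

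On the list of 14 genes headed HCN-binding and trafficking proteins, Pex5 had the smallest p. It encodes the peroxisomal import receptor and is a separate gene related to Pex5l in sequence. Its values therefore say nothing direct about partners of the channels. Its level was 56.5 to 60.4 CPM in contralateral, 47.0, 55.4, 43.5 and 48.5 CPM in ipsilateral 1 to 4, and 58.0 to 63.2 CPM in naive libraries. All 4 ipsilateral libraries lay below all naive and all contralateral ones. The log2 fold change was -0.34 for ipsilateral against naive (SE 0.07; unadjusted p = 0.00018, edgeR adjusted p = 0.497) and 0.28 for contralateral against ipsilateral (SE 0.07; edgeR adjusted p = 0.592). The groups of 4.73% of all tested genes do not overlap in ipsilateral against naive, and those of 2.94% do not in contralateral against ipsilateral. The nearest ipsilateral and contralateral libraries were at 55.4 and 56.5 CPM. Of the other genes on the list, the scaffold gene Magi2 stood at 0.15 for ipsilateral against naive (SE 0.06) and Lrmp, whose product binds HCN4, at -0.47 (SE 0.23) at a level under 2.2 CPM. The HCN-associated genes Kcne2 (0 to 5 counts per library) and Cav3 (0 to 3) were too low to be tested.

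Among 9 adenylyl cyclase genes, which make cyclic AMP, Adcy9 had the smallest p against naive. Its level was 63.0 to 90.4 CPM in contralateral, 97.7, 84.8, 75.8 and 85.9 CPM in ipsilateral 1 to 4, and 63.5 to 76.5 CPM in naive libraries, a log2 fold change of 0.34 for ipsilateral against naive (SE 0.11, edgeR adjusted p = 0.954). Adcy1, the most counted of them, stood at 0.21 (SE 0.10). Adcy5, a cyclase abundant in striatum, stood at 0.19 between the sides (SE 0.07), contralateral over ipsilateral.

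Among 15 phosphodiesterase genes, whose products break down cyclic nucleotides, Pde1a differed most between the sides. It was at 205.5, 224.8, 136.2 and 137.6 CPM in contralateral 1 to 4 and at 300.3, 323.2, 275.4 and 303.5 CPM in ipsilateral 1 to 4. The sides did not overlap, a property of 2.94% of all genes in this comparison, and naive libraries spanned 154.6 to 292.1 CPM. The log2 fold change, contralateral over ipsilateral, was -0.77 (SE 0.22, edgeR adjusted p = 0.592). Pde3a stood at 0.66 (SE 0.18) and Pde7b at 0.37 (SE 0.13). Pde10a, which is abundant in striatum, stood at 0.46 in contralateral against naive (SE 0.34). Contralateral 1 alone was at 163.6 CPM, beside 76.2 to 91.2 CPM in contralateral 2 to 4 and 65.5 to 84.4 CPM in naive libraries.

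Among 13 genes of receptors that act on cyclic AMP, the serotonin receptor gene Htr1a, whose product lowers it, was at 23.8, 32.1, 24.0 and 24.5 CPM in contralateral 1 to 4 and at 28.4 to 36.3 CPM in naive libraries. The groups overlapped through contralateral 2, and the log2 fold change was -0.32 (SE 0.10, edgeR adjusted p = 1.00). Htr6, whose product raises cyclic AMP, stood at 0.31 for ipsilateral against naive (SE 0.12) and -0.34 between the sides (SE 0.12). Adra2a, the adrenergic receptor gene whose product closes prefrontal HCN channels by lowering cyclic AMP, stood at -0.35 for ipsilateral against naive (SE 0.19) and -0.24 for CCI mice against naive mice (SE 0.15), and neither passed. Drd2 stood at 1.58 in contralateral against naive (SE 0.75), with 8.74 CPM in contralateral 1, 0.888 to 1.06 CPM in contralateral 2 to 4 and 0.703 to 1.61 CPM in naive libraries.

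Among 10 genes of kinases and a phosphatase that act on HCN channels, the protein kinase C gene Prkca stood at -0.17 in contralateral (SE 0.07) and -0.12 in ipsilateral cortex (SE 0.07) against the same naive libraries. Prkg1, a cyclic GMP-dependent kinase gene, stood at -0.43 in ipsilateral against naive (SE 0.17) and at 0.45 in contralateral against ipsilateral (SE 0.17). None of these passed (edgeR adjusted p = 0.592 or more).

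**Figure D5:**
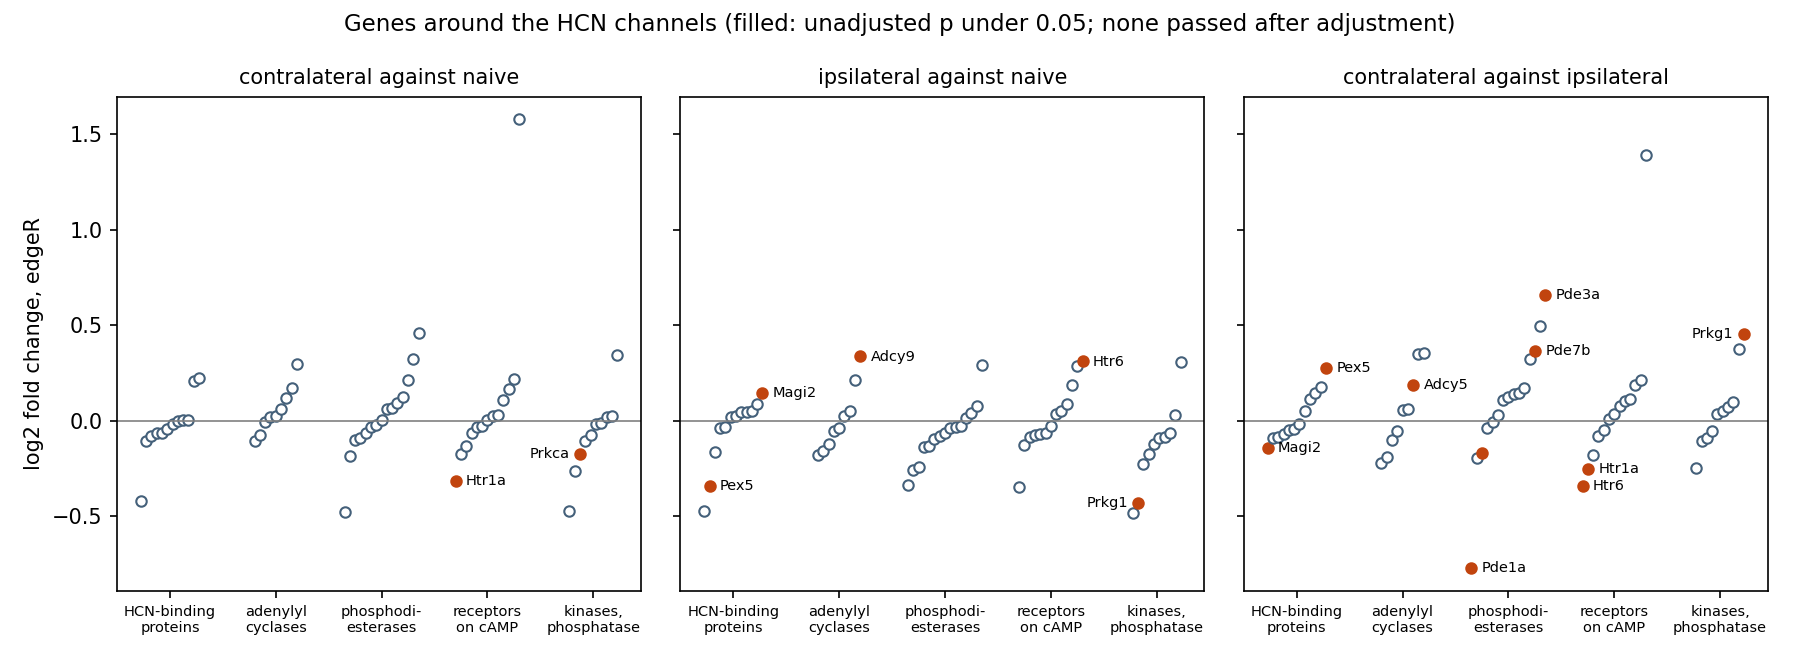
Log2 fold changes (vertical axis, edgeR estimates) of the 59 tested genes on 5 lists around the HCN channels, one point per gene, in 3 comparisons. Filled points have an unadjusted p under 0.05, of which there are 2, 5 and 10 from left to right, and no gene passed after adjustment; Pde1a is the lowest point between the sides (-0.77).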

How the data were processed

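RNA of the mPFC was sequenced in 12 libraries made with an mRNA kit, per the labels' protocols. The authors' deposited table holds unscaled whole-number counts for every library. It also holds deposited FPKM, which divide each count by a length per gene and the library total; that length was recovered from the columns. HISAT2 2.0.4 and GRCm38/mm10 are named in the submitters' processing notes without a role. Neither the counting program nor its annotation is given in the sources used here. A second deposited table with GO and KEGG text was not used. No per-sample column was left unmatched, and no pair of libraries held identical counts.

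The counts were tested as deposited with edgeR 4.0.16 in R 4.3.3 (TMM factors, filterByExpr by group, robust quasi-likelihood fits, two-sided), on 12 libraries in 3 groups and, with hemispheres summed, on 8 mice. The threshold was an adjusted p of 0.05 (Benjamini-Hochberg, over all genes tested). DESeq2 1.42.0 and limma 3.58.1 were alternatives, beside other scaling, filters, fits of only the groups compared, a replicate block and leaving out libraries or mice. Scripts were tested on simulated data. SE and 95% intervals were derived from the quasi-likelihood F values. The log2 CPM used a prior count of 2. Transcript models are GENCODE M21, with stretches of 31 bases compared over all its transcripts.

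The members and lists were chosen with earlier results of these data known. Named beside the members were up to 3 genes of smallest unadjusted p per list and comparison, a selection of which is given, and per member the 3 genes of highest Pearson r. Separate mice are not stated for replicates, so p-values measure the spread between these samples. Same-numbered L and R libraries were taken as one mouse from their codes. Over tested genes their deviations from group means correlated at -0.14 to 0.06. For 0 of 4 contralateral libraries was the ipsilateral library of the same number the best correlated, so the counts do not bear out this pairing.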

Additional observations from a re-analysis of the deposited data

Results flagged for a closer look

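Of 20 sets of 4 values examined for the members (3 groups of libraries, CCI mice, and right-to-left ratios), 1 held a value far from the others. Hcn2 was at 139.6 CPM in CCI mouse 2, both hemispheres summed, beside 157.0 to 157.6 CPM in CCI mice 1, 3 and 4. The gap made up 0.971 of the range of the 4 mice. Naive mice spanned 146.4 to 158.4 CPM, so that CCI mouse 2 lay below all of them. The cut-off used for such a gap is one that chance alone passes in about 1 of 20 sets.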

How the results depend on the processing

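The 16 member results (4 genes in 4 comparisons) were recomputed under alternatives that gave 236 values. None passed the threshold, 222 kept the direction and 14 turned it, all of them when libraries or mice were left out. With those left out, the log2 fold change of Hcn2 ran between -0.0847 and 0.0024 (contralateral against naive), -0.0152 and 0.15 (ipsilateral against naive), -0.21 and 0.0161 (between the sides) and -0.0125 and 0.0459 (mice). Hcn3 ran between -0.0507 and 0.12, -0.16 and -0.0239, 0.0236 and 0.20, and -0.10 and 0.0263 in the same order. Hcn4 ran between -0.40 and -0.0070, -0.72 and -0.30, 0.0146 and 0.66, and -0.54 and -0.24. Pex5l ran between 0.06 and 0.24, 0.18 and 0.35, -0.24 and 0.0057, and 0.11 and 0.29. Between the sides Hcn2 turned without mouse 1 and Pex5l without mouse 4.

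The count of all genes passing was 0 in each of the 4 comparisons with all libraries or mice (edgeR), and between the sides also 0 with DESeq2 and limma. For contralateral against naive it was 3 with DESeq2, 1 with a replicate block and 1 in a fit of only the 2 groups. For ipsilateral against naive it was 7 with DESeq2, 1 with a replicate block and 7 in a fit of only the 2 groups. For mice it was 33 with DESeq2, 5 with no filter on low counts and 1 with a replicate block. When libraries or mice were left out it ran between 0 and 2, 0 and 1, 0 and 286 (both libraries of mouse 2; 159 without contralateral 2 alone) and 0 and 6. The block changed no call of a member (Pex5l, ipsilateral against naive, 0.26 with it, edgeR adjusted p = 0.989). Same-numbered mice of different groups share only a number. The cause of these shifts was not tested.

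Over 12 libraries in place of 8 mice, r was -0.22 for Hcn2 with Hcn3 (0.21 over mice), -0.56 for Hcn2 with Hcn4 (-0.03), 0.41 for Hcn2 with Pex5l (0.05), 0.59 for Hcn3 with Hcn4 (0.30) and -0.63 for Hcn4 with Pex5l (-0.44). Ratios of CCI to naive mean levels were alike in FPKM and CPM for all 8 compared. Both come from the same counts and the length of a gene cancels in such a ratio, so only the library scaling could differ. The level of Hcn2 was 3.29 times that of Pex5l in FPKM and 1.36 times per coding transcript length, an alternative chosen after seeing the data. Low counts, 20 to 76 per library, limit what can be said of Hcn4.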
